A study of Arabidopsis thaliana with 20 samples.

Results

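The class A heat shock factors A1, A2, A3, A6 and A7 of Arabidopsis are described here, 10 genes of the 33601 loci counted in each library. They were chosen by name: HSFA1A (AT4G17750), HSFA1B (AT5G16820), HSFA1D (AT1G32330), HSFA1E (AT3G02990), HSFA2 (AT2G26150), HSFA3 (AT5G03720), HSFA6A (AT5G43840), HSFA6B (AT3G22830), HSFA7A (AT3G51910) and HSFA7B (AT3G63350). All 10 passed the filter on low values, a count of 10 or more in 1 or more of the 16 libraries from light:dark cycles (the diel libraries). Their transcripts were measured by RNA-Seq in wild-type Col-0 seedlings, 14 days old and raised at 23 °C under cycles of 12 h light and 12 h dark. PM heat seedlings were held at 30 °C for 1 h from ZT 12.5, shortly after lights off, and PM control seedlings stayed at 23 °C over the same hour. AM heat seedlings were held at 30 °C for 1 h from ZT 0.5, shortly after lights on, and AM control seedlings stayed at 23 °C (ZT counts hours after lights on). These 4 diel groups had 4 replicates each. HSFA6A passed the filter only through AM libraries and HSFA6B only through PM libraries. LL PM heat, LL PM control, LL AM heat and LL AM control, with 1 library each, came from seedlings moved from the same light cycles into constant light and sampled on the second day there. No mutant or transgenic plants were used. The study's methods give aerial tissue as the material, whereas the labels give whole plants.

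Heat shock factors are transcription factors that bind heat shock elements, arrays of inverted nGAAn units, in the promoters of chaperone genes. In unstressed cells the A1 factors are held inactive by chaperones such as HSP70 and HSP90, and on heating they are released, assemble into trimers and switch on the early heat response. HSFA2, HSFA7A and HSFA7B are themselves transcribed on heating and extend that response, HSFA3 is activated by the drought- and heat-responsive factor DREB2A, and HSFA6A and HSFA6B are known from the responses to abscisic acid and salt. The comparison of dawn and dusk asks whether the time of day at which seedlings are warmed sets how these transcripts respond.

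The sequence before each gene was searched for the elements through which this family and the circadian clock are known to act, so that the measured patterns can be read beside it. Windows from 250 bases before to 50 bases after the annotated start were read from the genome TAIR10.1 with its own annotation, since the count files hold no coordinates; the reads had been counted on TAIR10. A pair of inverted heat shock units (GAANNTTC or TTCNNGAA) was found in 4 of the 10 windows, those of HSFA1E, HSFA2, HSFA7A and HSFA7B, and in 19.3% of the windows of all 27443 protein-coding genes. Alternating arrays of 3 units, each of which contains overlapping pairs, were found at HSFA2, HSFA7A and HSFA7B, and in 0.481% of all windows. HSFA7A held this array at 2 places with identical letters, from base -192 to -180 and from base -142 to -130. The evening element (AAAATATCT), a site of clock proteins, was found at HSFA3 from base -24 to -16 and at HSFA6B from base 34 to 42 after the start, and in 2.82% of all windows. The dehydration-responsive element (ACCGAC or GCCGAC) was found at HSFA1A, against 8.72% of all windows. The core of the abscisic acid-responsive element (ACGTG) was found at 6 of the 10 genes, against 26.7%, and the G-box (CACGTG), which contains this core, at HSFA1E and HSFA2, against 7.68%. Both strands were searched. A match of letters is a description of the sequence and does not show that a factor binds there.

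**Figure D1:**
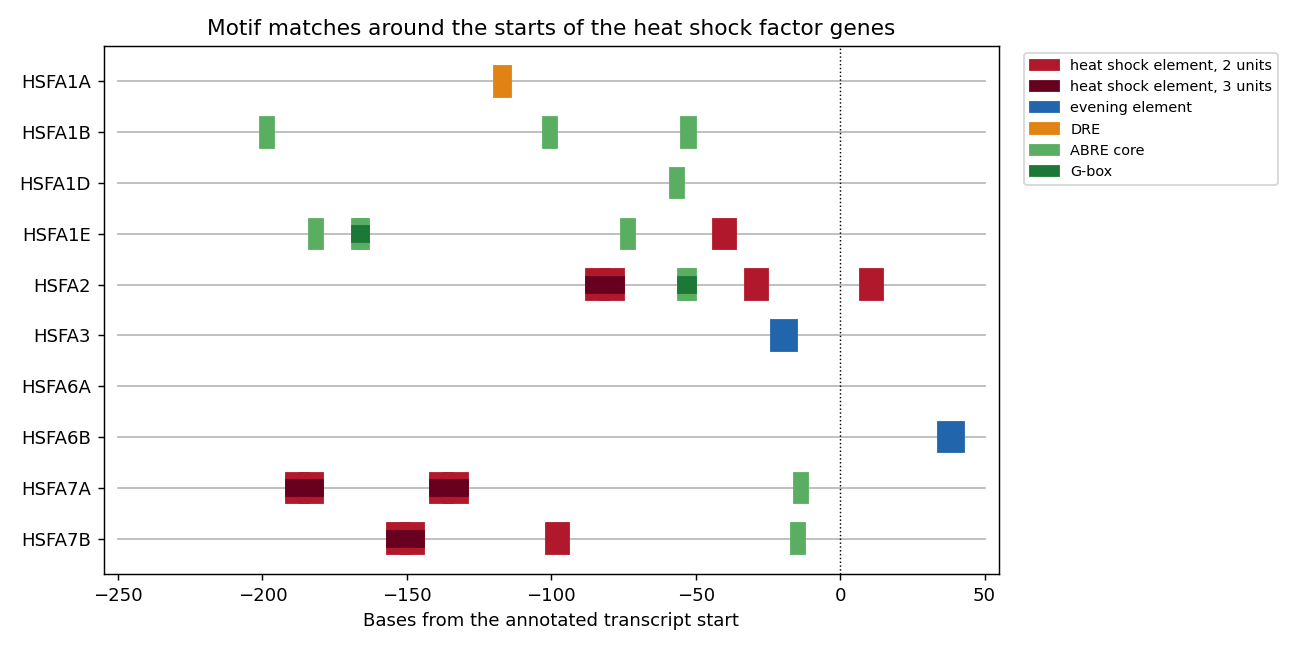
Positions of motif matches (boxes, coloured by motif) along the 10 windows, 1 row per gene, in bases from the annotated transcript start (dotted line). Arrays of 3 heat shock units lie upstream of HSFA2, HSFA7A (at 2 places) and HSFA7B, and the evening element lies at HSFA3 and HSFA6B.

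The stretches before HSFA2, HSFA7A and HSFA7B, with arrays of 3 heat shock units, and before HSFA3, with the evening element, are printed. They run 5′ to 3′ on the strand of the gene and end at the base before the annotated start. Capitals mark heat shock units in HSFA2, HSFA7A and HSFA7B and the evening element in HSFA3. HSFA2 and HSFA3 are cut where a neighbouring gene begins. Their positions are chr2:11135466-11135623 on the plus strand (HSFA2), chr3:19264891-19265140 on the plus strand (HSFA7A), chr3:23398986-23399235 on the plus strand (HSFA7B) and chr5:974327-974359 on the minus strand (HSFA3).
HSFA2: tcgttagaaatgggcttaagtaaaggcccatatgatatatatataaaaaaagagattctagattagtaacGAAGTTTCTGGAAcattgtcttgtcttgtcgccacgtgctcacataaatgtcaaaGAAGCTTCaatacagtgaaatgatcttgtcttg
HSFA7A: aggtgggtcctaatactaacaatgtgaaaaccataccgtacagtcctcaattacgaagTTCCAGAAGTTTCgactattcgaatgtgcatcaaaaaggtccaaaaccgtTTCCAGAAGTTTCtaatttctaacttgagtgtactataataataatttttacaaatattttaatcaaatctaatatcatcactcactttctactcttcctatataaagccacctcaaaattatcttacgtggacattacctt
HSFA7B: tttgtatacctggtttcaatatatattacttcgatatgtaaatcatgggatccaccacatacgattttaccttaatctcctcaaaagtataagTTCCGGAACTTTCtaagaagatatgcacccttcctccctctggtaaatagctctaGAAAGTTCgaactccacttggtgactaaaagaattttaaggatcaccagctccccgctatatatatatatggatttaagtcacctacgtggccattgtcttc
HSFA3: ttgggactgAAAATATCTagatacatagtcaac

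In the TAIR10.1 annotation all 10 are protein-coding genes with 2 or 3 exon blocks, and their exons cover 1056 to 2210 bases. The A1 genes lie at chr4:9869818-9871646 (HSFA1A, minus strand), chr5:5530195-5532889 (HSFA1B, plus), chr1:11656964-11660471 (HSFA1D, minus) and chr3:673428-676428 (HSFA1E, plus). HSFA2 lies at chr2:11135624-11137792 (plus) and HSFA3 at chr5:971142-974326 (minus). HSFA6A lies at chr5:17625353-17626487 (minus), HSFA6B at chr3:8078789-8081059 (plus), HSFA7A at chr3:19265141-19266806 (plus) and HSFA7B at chr3:23399236-23400812 (plus). Over the 45 pairs, the coding sequences were identical at 60.6% to 77.6% of aligned bases, with a median of 64.7%. The closest pair was HSFA1B and HSFA1E (77.6%), and HSFA7A and HSFA7B shared 72.1%. Between 0% and 0.565% of the 31-base words of each gene's exons occurred elsewhere in the genome. HSFA1B and HSFA3 each overlap 1 gene on the other strand, and reads were counted by strand.

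Library totals ran from 14637914 to 38812441 counts in light:dark cycles and from 8594948 to 19957156 counts in constant light. Levels are given as CPM, counts scaled to a common library size with edgeR's TMM factors. The markers of leaf tissue, RBCS1A, LHCB1.3 and RCA, summed to between 17570 and 59955 CPM over the diel libraries. The 4 markers of root tissue, EXPA7, COBL9, CASP1 and PRP3, summed to 4.81 to 19.7 CPM in PM heat and 18.7 to 40.2 CPM in PM control, and to 4.48 to 17.62 CPM in AM heat and 27.8 to 30.2 CPM in AM control. None of the 4 was at 0 in a diel library, COBL9 was called lower with heat at both times and CASP1 in the AM. This difference between heated and control libraries runs alongside every heat response below, and its part in them was not tested. The morning clock transcripts CCA1 and LHY summed to 1.74 to 5.14 CPM over the PM libraries and 387 to 888 CPM over the AM libraries, and the evening transcripts TOC1, LUX and ELF4 summed to 99.3 to 494 CPM over the PM libraries and 16.1 to 20.3 CPM over the AM libraries, which fits the time labels. Libraries numbered 1 and 2 tended to deviate from their group means together, as did those numbered 3 and 4 (mean correlation 0.496 between groups). Values within these pairs are therefore given for the main results.

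Heat raised 5 of the 10 transcripts in the PM and 3 in the AM, and lowered none at either time by the thresholds used, an adjusted p under 0.05 (edgeR's quasi-likelihood test with Benjamini-Hochberg adjustment over 21404 loci) and an absolute log2 fold change over 0.5. HSFA2, HSFA7A and HSFA7B passed at both times, and HSFA1B and HSFA3 in the PM. Of all loci tested, 18.22% passed in the PM (7.59% higher and 10.6% lower) and 13.6% in the AM (5.20% higher and 8.36% lower). The median log2 fold change of the 10 was 0.59 in the PM, against -0.03 over all loci, and 0.36 in the AM, against 0.03. In bulk samples such as these, fewer cells that express a gene and less RNA per cell cannot be told apart. The labels number the replicates without saying whether they were separate sowings, so the p-values measure the spread between these libraries.

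**Figure D2:**
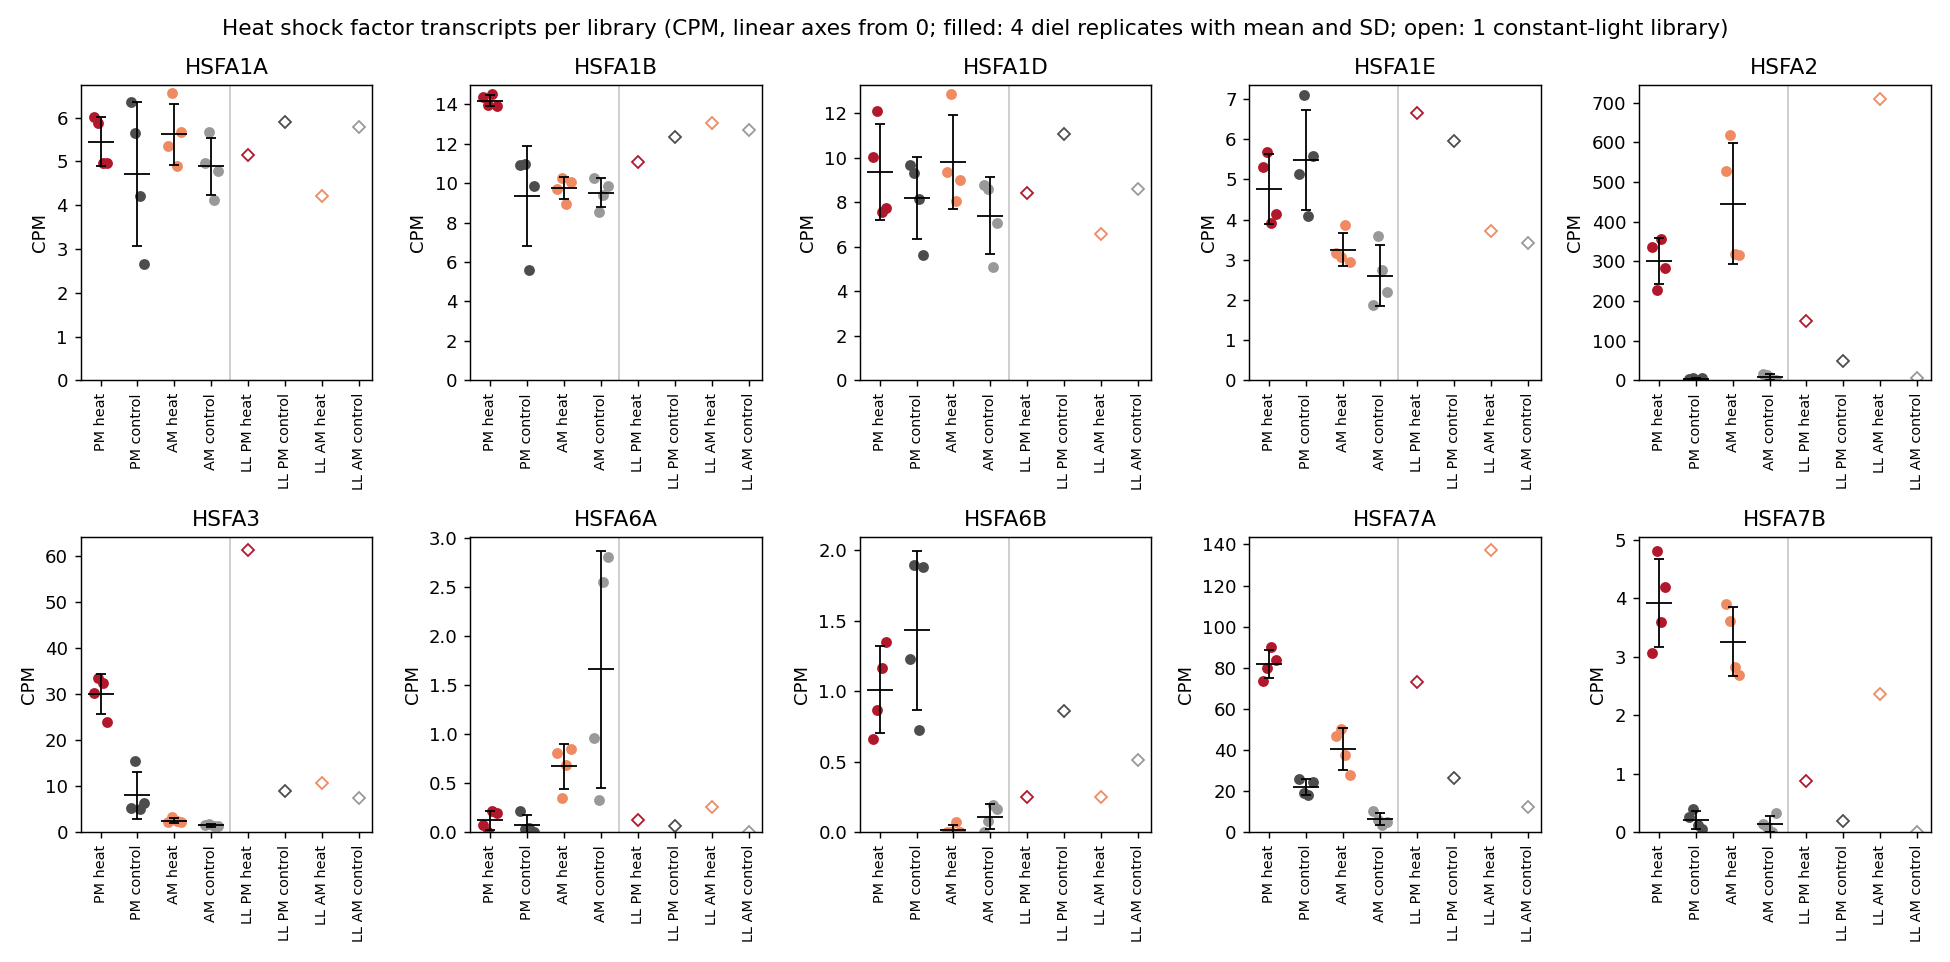
CPM of each gene in every library, on linear axes that start at 0 and differ between panels. Filled points are the 4 diel replicates of a group with their mean and SD (black bars), and open diamonds are single constant light libraries. HSFA2 reached 227 to 619 CPM in the heated diel libraries, while HSFA1A and HSFA1D overlapped between all 4 diel groups.

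HSFA2, the most strongly heat-induced activator of the family and known for prolonging thermotolerance, changed most. It had 335, 227, 356 and 283 CPM in PM heat, against 3.22, 5.45, 1.74 and 5.03 CPM in PM control. AM heat had 529, 619, 319 and 315 CPM, against 16.6, 13.2, 1.76 and 2.09 CPM in AM control. Every heated library exceeded every control library by more than an order of magnitude, at both times. The log2 fold change was 6.28 ± 0.67 in the PM (SE, n = 4 each, adjusted p = 2.18e-05 by edgeR) and 5.71 ± 0.65 in the AM (adjusted p = 3.40e-05 by edgeR). The AM libraries fell into pairs: replicates 1 and 2 were higher than replicates 3 and 4 in AM heat and in AM control alike. The ratio of mean CPM in the AM was 38.4 within replicates 1 and 2 and 165 within replicates 3 and 4, and in the PM it was 64.9 and 94.4.

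The induced level of HSFA2 did not differ detectably between dusk and dawn. The log2 fold change of PM heat over AM heat was -0.57 ± 0.53 (adjusted p = 0.423 by edgeR), and the 8 libraries overlapped. Within the pairs the ratio of PM heat to AM heat was 0.490 in replicates 1 and 2 and 1.01 in replicates 3 and 4. The response itself, tested as the PM log2 fold change minus the AM one, differed by 0.58 ± 0.77 (adjusted p = 0.840 by edgeR). PM control and AM control also overlapped, at a log2 fold change of -1.15 ± 0.57 (adjusted p = 0.137 by edgeR). That difference passed without AM control replicate 3 (-1.47, adjusted p = 0.0373) or without AM control replicate 4 (-1.46, adjusted p = 0.0484), and within the pairs it ran in opposite directions, with a PM over AM ratio of 0.290 in replicates 1 and 2 and 1.76 in replicates 3 and 4.

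HSFA7A, a factor that the A1 factors are known to switch on with heat, differed with both heat and time of day. It had 73.7, 80.1, 90.16 and 83.7 CPM in PM heat, against 25.7, 19.0, 18.23 and 24.6 CPM in PM control. At dawn it had 46.6, 50.3, 37.3 and 27.7 CPM in AM heat, against 10.4, 5.76, 3.66 and 5.004 CPM in AM control. The 4 groups did not overlap, and their order of PM heat, AM heat, PM control and AM control held at each step, with adjusted p of 0.00357, 0.00877 and 5.56e-05 between neighbours (edgeR). Of all loci, 39.3% passed in AM heat against PM control, the middle step. Heat raised it by 1.90 ± 0.25 in the PM (adjusted p = 1.81e-04) and by 2.69 ± 0.27 in the AM (adjusted p = 9.11e-06) on the log2 scale. The ratio of mean CPM was 3.44 and 4.06 within the pairs of replicates in the PM, and 5.98 and 7.51 in the AM.

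The PM level of HSFA7A was higher than the AM level in heated and in unheated seedlings, by 1.02 ± 0.25 with heat (adjusted p = 0.00357) and 1.80 ± 0.26 without (adjusted p = 5.56e-05 by edgeR). The PM response minus the AM response was -0.79 ± 0.36 on the log2 scale and was not called (unadjusted p = 0.0413, adjusted p = 0.377 by edgeR).

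HSFA7B was induced from a far lower base. It had 3.07, 4.81, 3.59 and 4.20 CPM in PM heat, against 0.253, 0.392, 0.121 and 0.0552 CPM in PM control, the last of these being 1 to 12 reads. At dawn it had 3.91, 3.62, 2.82 and 2.69 CPM in AM heat, against 0.137, 0.0817, 0 and 0.330 CPM in AM control, the 0 allowing up to 0.196 CPM at a limit of 3 counts. The heated libraries did not overlap the controls at either time. The log2 fold change was 4.12 ± 0.47 in the PM (adjusted p = 4.36e-05) and 4.51 ± 0.52 in the AM (adjusted p = 3.74e-05 by edgeR). The ratio of mean CPM was 12.2 within replicates 1 and 2 and 44.1 within replicates 3 and 4 in the PM, and 34.5 and 16.7 in the AM, so that the order of the PM and AM ratios differed between the pairs. Without AM control replicate 4 the AM log2 fold change was 5.26. Summed over replicates, 348 reads in PM heat stood against 23 in PM control, a ratio of 16.3 (95% exact interval 10.7 to 26.0, counting error only), and 252 in AM heat against 11 in AM control, a ratio of 23.9 (13.2 to 48.6). No difference between PM and AM was called, with 0.26 ± 0.38 in heated seedlings (adjusted p = 0.633) and 0.64 ± 0.61 in unheated seedlings (adjusted p = 0.458 by edgeR). The response differed by -0.39 ± 0.70 between the times.

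HSFA3, the factor downstream of DREB2A, was a dusk transcript. It had 30.2, 33.4, 32.4 and 23.9 CPM in PM heat, against 5.17, 15.5, 5.05 and 6.24 CPM in PM control. Its AM levels were 2.30, 3.32, 2.34 and 2.14 CPM in AM heat, against 1.46, 1.88, 1.31 and 1.26 CPM in AM control. No groups overlapped, so that even the lowest PM control library, at 5.05 CPM, exceeded the highest AM heat library. PM levels were higher than AM levels by 3.56 ± 0.33 with heat (adjusted p = 3.24e-07) and by 2.42 ± 0.33 without heat (adjusted p = 2.98e-05 by edgeR) on the log2 scale. Within the pairs of replicates the ratio of PM heat to AM heat was 11.3 and 12.6.

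Heat raised HSFA3 in the PM by 1.90 ± 0.30 (adjusted p = 7.23e-04 by edgeR), with ratios of 3.08 and 4.99 within the pairs. The AM response of 0.77 ± 0.34 was not called (adjusted p = 0.145), although all 4 AM heat libraries lay above the AM controls, and the ratios within the pairs were 1.68 and 1.74. With the replicate number as a block it was called (0.77, adjusted p = 0.0392, with 20.3% of all loci called), and with the pair of numbers as a batch it was not (0.78, adjusted p = 0.0810). The PM response exceeded the AM response by 1.13 ± 0.45 (unadjusted p = 0.0229, adjusted p = 0.302), which was not called either. PM control replicate 2, at 15.5 CPM, stood apart from the other 3, and without it the AM response (adjusted p = 0.0146) and the difference between the responses (1.69 ± 0.27, adjusted p = 0.00866 by edgeR) were both called.

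**Figure D3:**
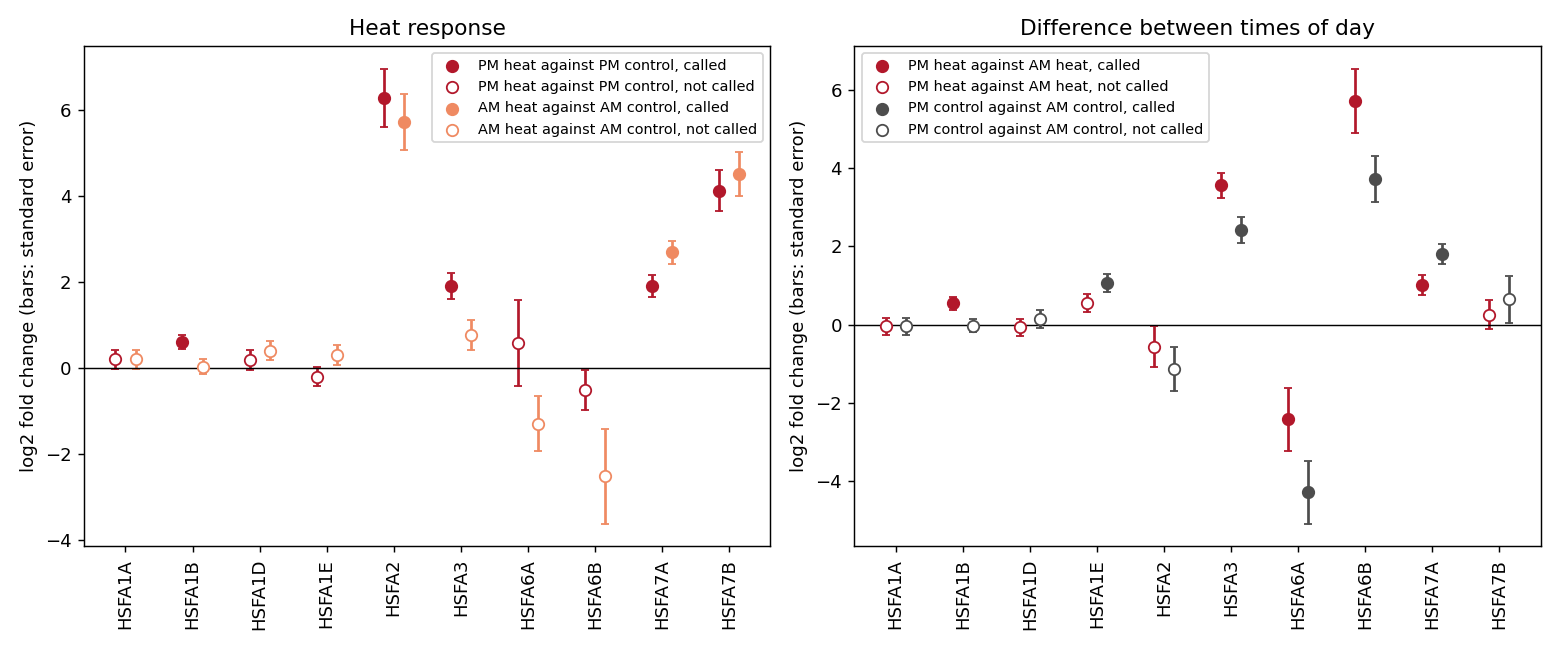
Log2 fold changes of the 10 genes from the fit to the 16 diel libraries, with heat responses on the left and PM over AM differences on the right. Bars are standard errors, filled points passed both thresholds and open points did not. HSFA3 lay 3.56 above its AM level in heated seedlings, and HSFA6A and HSFA6B lay on opposite sides of 0.

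The A1 factors, which act first in the response and are regulated largely as proteins, changed little as transcripts. HSFA1B was the exception in the PM. It had 14.3, 13.97, 14.5 and 13.9 CPM in PM heat, against 10.9, 10.97, 5.62 and 9.83 CPM in PM control. Its AM levels were 9.69, 10.3, 8.95 and 10.06 CPM in AM heat, against 10.3, 8.54, 9.40 and 9.84 CPM in AM control. All 4 PM heat libraries lay above the other 12, which overlapped one another. The log2 fold change with heat was 0.60 ± 0.17 in the PM (adjusted p = 0.0197) and 0.04 ± 0.17 in the AM (adjusted p = 0.916), and PM heat exceeded AM heat by 0.54 ± 0.17 (adjusted p = 0.0167 by edgeR). The PM ratio was 1.29 within replicates 1 and 2 and 1.84 within replicates 3 and 4. The PM call rested on PM control replicate 3: without it the log2 fold change was 0.42, under the limit of 0.5. It was also lost with each time of day fitted alone (adjusted p = 0.0855), with upper-quartile normalization, which lowered the median of all loci by 0.14 (log2 fold change 0.47), and in a test against the fold limit itself (adjusted p = 0.494), which also ended the PM heat over AM heat call (adjusted p = 0.438). The difference between the responses, 0.57 ± 0.24, was not called (unadjusted p = 0.0304, adjusted p = 0.339).

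HSFA1E, the nearest relative of HSFA1B, was higher at dusk and did not change detectably with heat. It had 5.29, 5.68, 3.91 and 4.15 CPM in PM heat, against 5.13, 7.08, 4.08 and 5.58 CPM in PM control. Its AM levels were 3.16, 3.06, 3.86 and 2.94 CPM in AM heat, against 1.87, 3.59, 2.74 and 2.20 CPM in AM control. PM control exceeded AM control by 1.07 ± 0.23 (adjusted p = 0.00185 by edgeR), without overlap. PM heat exceeded AM heat by 0.55 ± 0.23, also without overlap (lowest 3.91 against highest 3.86 CPM), but was not called (adjusted p = 0.0643). The ratio was 1.76 within replicates 1 and 2 and 1.19 within replicates 3 and 4. This difference was called with the replicate number as a block (0.55, adjusted p = 0.0330, with 42.2% of all loci called), with the pair of numbers as a batch (adjusted p = 0.0377) and without AM control replicate 2 (adjusted p = 0.0473). DESeq2 did not call it (adjusted p = 0.0529). The heat response was -0.20 ± 0.22 in the PM and 0.32 ± 0.23 in the AM.

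HSFA1A and HSFA1D did not pass in any of the comparisons. HSFA1A averaged 5.45 ± 0.57 CPM in PM heat and 4.72 ± 1.64 CPM in PM control, and 5.62 ± 0.70 CPM in AM heat and 4.89 ± 0.64 CPM in AM control (SD, n = 4 each). HSFA1D averaged 9.37 ± 2.15 CPM in PM heat and 8.20 ± 1.83 CPM in PM control, and 9.83 ± 2.11 CPM in AM heat and 7.402 ± 1.72 CPM in AM control. Neighbours in the order of group means did not differ beyond their spread for either gene, with adjusted p between 0.579 and 0.897. Across the 16 diel libraries the pair varied together, with a Pearson r of 0.823 and a Spearman rho of 0.912, a description over libraries that share groups and replicate pairs.

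HSFA6A and HSFA6B had the fewest reads and opposite times of day. HSFA6A had 0.0760, 0, 0.211 and 0.193 CPM in PM heat and 0.217, 0.0326, 0.0404 and 0 CPM in PM control, none of them above 6 reads. The 2 values of 0 allow up to 0.201 CPM in PM heat and 0.166 CPM in PM control at a limit of 3 counts. At dawn it had 0.803, 0.345, 0.689 and 0.847 CPM in AM heat and 0.958, 0.327, 2.55 and 2.80 CPM in AM control. Each PM library lay below each AM library of the same treatment, by -2.42 ± 0.80 with heat (adjusted p = 0.0232) and -4.30 ± 0.80 without (adjusted p = 5.81e-04 by edgeR) on the log2 scale. HSFA6A passed the count filter only through the AM libraries, so these calls are no independent support. The call in heated seedlings was lost without PM heat replicate 1 (adjusted p = 0.0729), PM heat replicate 2 (0.0570) or AM heat replicate 4 (0.0529), and without PM control replicate 1 the unheated difference was -5.64. The summed reads were 11 in PM heat against 50 in AM heat, a ratio of 0.179 (95% exact interval 0.0839 to 0.348), and 8 in PM control against 119 in AM control, a ratio of 0.0531 (0.0224 to 0.108).

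HSFA6B ran the other way, with 0.659, 0.869, 1.16 and 1.35 CPM in PM heat and 1.23, 1.89, 0.728 and 1.88 CPM in PM control. In the AM it had 1 read in the 4 AM heat libraries together and 8 reads in the 4 AM control libraries. Summed reads were 89 in PM heat against that 1 read in AM heat, a ratio of 72.3 (95% exact interval 12.6 to 2888), and 144 in PM control against 8 in AM control, a ratio of 14.2 (7.03 to 33.6). PM levels were called higher with heat (adjusted p = 3.36e-05) and without (adjusted p = 1.41e-04, log2 fold change 3.73 ± 0.60 by edgeR). HSFA6B passed the count filter only through the PM libraries, so these calls are no independent support. Neither gene had a called heat response: HSFA6A changed by 0.59 ± 1.00 in the PM and -1.29 ± 0.64 in the AM, and HSFA6B by -0.51 ± 0.46 and -2.51 ± 1.10, with adjusted p between 0.137 and 0.707. Single libraries moved these values: without PM control replicate 1 the PM value of HSFA6A was 1.94, and without AM heat replicate 3 the AM value of HSFA6B was -4.28. The PM ratio of HSFA6A was 0.305 within replicates 1 and 2 and 9.998 within replicates 3 and 4, which run in opposite directions.

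Counted over the 10 genes, PM control exceeded AM control in 4 (HSFA1E, HSFA3, HSFA6B and HSFA7A) and lay below it in 1 (HSFA6A), while 28.7% of all loci passed in this comparison (13.8% higher and 14.9% lower). PM heat exceeded AM heat in 4 (HSFA1B, HSFA3, HSFA6B and HSFA7A) and lay below it in 1 (HSFA6A), while 36.9% of all loci passed (17.9% higher and 19.0% lower). HSFA6A and HSFA6B, counted in both comparisons, passed the count filter only at the time where they were higher. The response to heat differed between the times in 0 of the 10 by an adjusted p under 0.05, against 0.397% of all loci. DESeq2 called 0 (3.05% of the loci it gave an adjusted p). It gave HSFA6A and HSFA6B none, so that this 0 covers 8 of the 10. The replicate block in edgeR also gave 0 (3.21% of all loci). Without a test, the libraries of PM heat lay wholly above PM control in 5 genes (11.2% of all loci) and those of AM heat above AM control in 4 (10.4%). PM control lay wholly above AM control in 4 genes (14.4%) and below it in 1 (15.3%), and PM heat lay above AM heat in 5 (20.1%) and below it in 1 (21.0%).

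Per length of transcript, the make-up of the family differed more between groups than the A1 level did. The 10 genes summed to 266 ± 31.03 CPM per kb of exon in PM heat and 39.9 ± 6.38 in PM control, and to 292 ± 91.3 in AM heat and 24.8 ± 6.44 in AM control (SD, n = 4 each). The 4 A1 genes together had 17.3 ± 1.74 CPM per kb in PM heat, 14.2 ± 2.93 in PM control, 14.6 ± 1.52 in AM heat and 12.5 ± 1.17 in AM control. Their share of the sum was therefore 6.59% in PM heat and 35.5% in PM control, and 5.29% in AM heat and 52.2% in AM control. HSFA2 made up 59.8% in PM heat and 5.02% in PM control, and 80.8% in AM heat (77.4% to 83.5% over the libraries) and 15.9% in AM control, where the libraries ran from 5.16% to 27.0%. HSFA7A made up 26.8% in PM heat and 47.7% in PM control, where it ranked first at 18.9 ± 3.29 CPM per kb. It made up 12.2% in AM heat and 20.9% in AM control, where it stood beside HSFA1B at 5.36 ± 2.54 against 4.74 ± 0.37 CPM per kb, within the spread of its replicates. HSFA3 made up 5.16% in PM heat and 0.407% in AM heat.

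**Figure D4:**
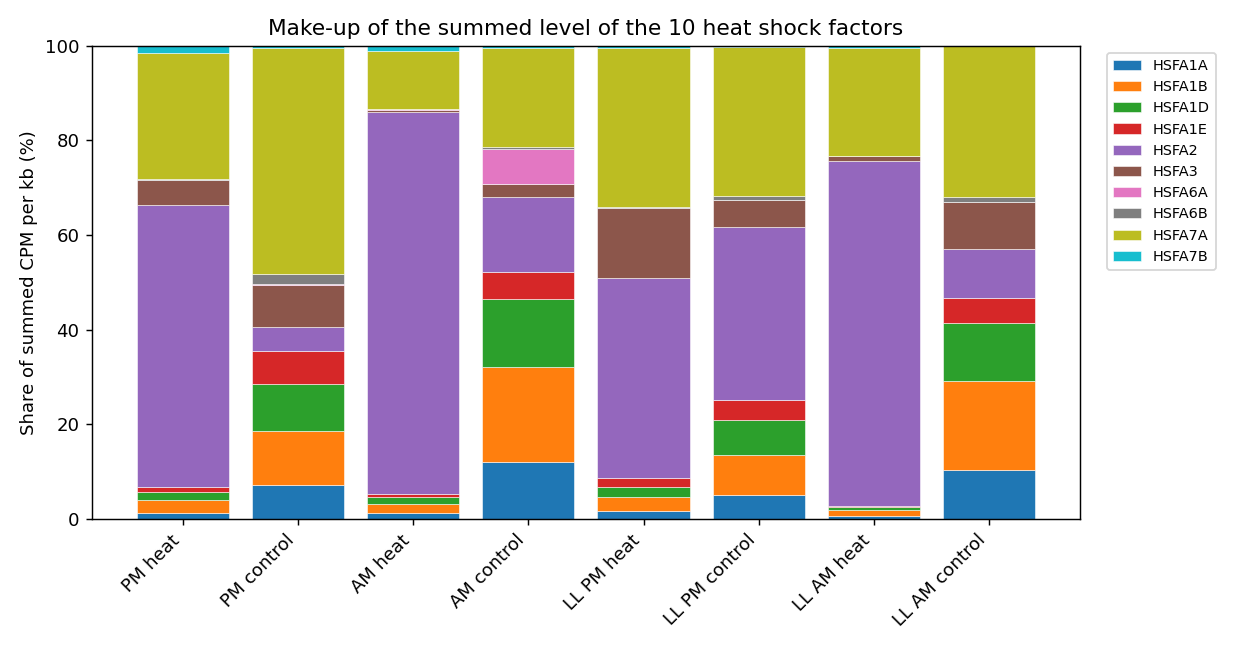
Share of each gene in the summed CPM per kb of exon of the 10 genes, as the mean over the 4 replicates of each diel group and as the single library of each constant light group. HSFA2 fills 59.8% of the PM heat bar and 80.8% of the AM heat bar.

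In constant light, where only 1 library per condition was sequenced, there is no test and intervals cover counting error only. HSFA2 had 149 CPM in LL PM heat and 49.0 CPM in LL PM control, a ratio of 3.05 (95% exact interval 2.78 to 3.35). It had 709 CPM in LL AM heat and 6.60 CPM in LL AM control, a ratio of 107 (90.33 to 129). The LL PM control library, at 49.0 CPM, lay above all 8 diel control libraries, the highest of which had 16.6 CPM, and the LL PM heat library lay below all 8 heated diel libraries.

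HSFA3 had 61.1 CPM in LL PM heat and 9.01 CPM in LL PM control (ratio 6.79, interval 5.60 to 8.27), and 10.7 CPM in LL AM heat and 7.42 CPM in LL AM control (ratio 1.44, interval 1.13 to 1.84). The 2 LL controls differed by a ratio of 1.21 (0.954 to 1.55), against a fitted fold of 5.37 between the diel controls, and LL AM control lay above all 4 diel AM control libraries. LL PM heat stood 5.71 times above LL AM heat (4.69 to 6.996), against a fitted fold of 11.8 between the diel heat groups. HSFA7A had 73.3 CPM in LL PM heat and 26.2 CPM in LL PM control (ratio 2.80, interval 2.46 to 3.19), and 137 CPM in LL AM heat and 12.4 CPM in LL AM control (ratio 11.03, interval 9.63 to 12.7). HSFA7B had 7 reads in LL PM heat and 3 in LL PM control (ratio 4.42, interval 1.01 to 26.51), and 28 reads in LL AM heat and 0 in LL AM control, at least 15.4-fold higher at a limit of 3 counts per library.

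With TMM scaling, the 4 A1 genes stayed within a log2 ratio of 1 in each comparison in constant light. With library totals in place of TMM, HSFA1E passed it in LL PM control against LL AM control. HSFA1B had 11.04 CPM in LL PM heat and 12.3 CPM in LL PM control, a ratio of 0.897 (0.688 to 1.16). HSFA1E had 5.96 CPM in LL PM control and 3.43 CPM in LL AM control, a ratio of 1.74 (1.25 to 2.42). HSFA6A had 0 to 3 reads in each constant light library, and HSFA6B 2, 13, 3 and 10 reads in LL PM heat, LL PM control, LL AM heat and LL AM control. Past a log2 ratio of 1, in either direction, were 5 genes in LL PM heat against LL PM control (27.4% of the 20122 loci with 10 or more counts in a constant light library). Of these, 4 were higher (10.4% of loci) and HSFA6B was lower (17.1%), its interval including 1. In LL AM heat against LL AM control 4 genes were past it (10.7% of loci), 3 of them higher (6.48%) and HSFA6B lower (4.25%) with an interval including 1. In LL PM control against LL AM control 2 genes were past it (14.9%), HSFA2 and HSFA7A, both higher (9.57%). In LL PM heat against LL AM heat 3 genes were past it (30.2%), HSFA3 higher (12.4%) and HSFA2 and HSFA7B lower (17.8%). The morning clock transcripts summed to 26.4 and 75.3 CPM in the LL PM heat and LL PM control libraries and to 573 and 569 CPM in the LL AM heat and LL AM control libraries.

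**Figure D5:**
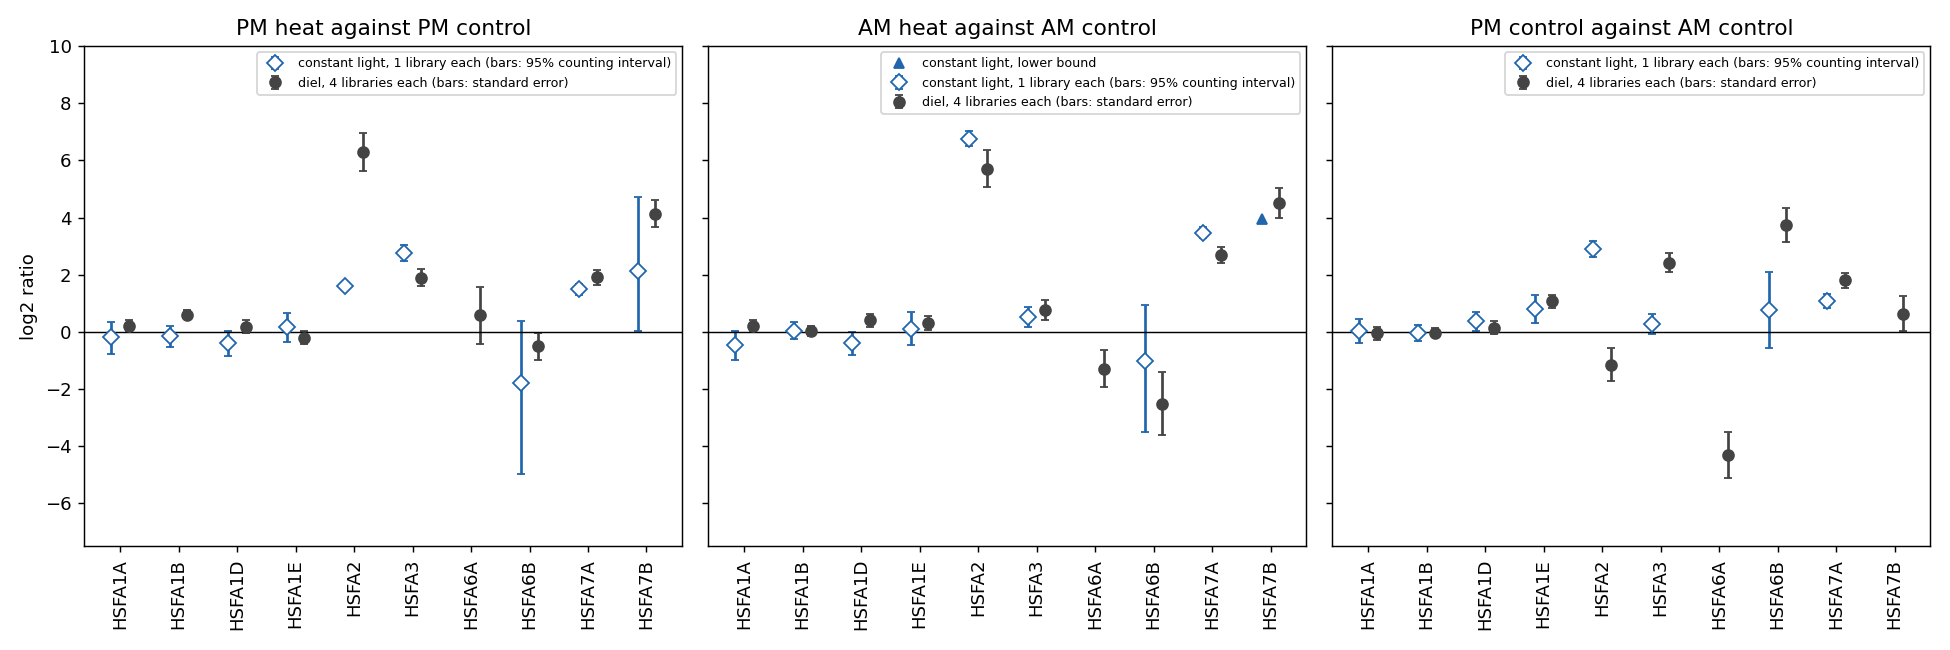
Log2 ratios of the 10 genes in constant light (open diamonds with 95% counting intervals, a triangle for a lower bound, no symbol where neither library exceeded 3 counts) beside the diel log2 fold changes (filled circles with standard errors). HSFA2 lay at 1.61 in constant light and 6.28 in the diel libraries for the PM response.

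Around the 10 genes, the pathway was described from lists that had been drawn up with earlier results of these data known, and 3 genes (HSP70, HSP90.1 and DREB2A) stand in more than 1 list. Of the other heat shock factors, 9 of 11 passed the count filter. HSFA9, at most 0.0653 CPM in a library, and HSFB1, at 0 CPM in every library, did not. Whether reads of HSFB1 were missed in counting was not tested. Heat raised 3 (7.59% of all loci) and lowered 1 (10.6%) in the PM and raised 2 in the AM (5.20%). The repressor HSFB2B rose by 3.27 ± 0.22 in the PM and 2.63 ± 0.21 in the AM, HSFB2A by 2.42 ± 0.20 and 1.57 ± 0.19, and HSFA4A by 0.71 ± 0.22 in the PM, whereas HSFB3 fell by 1.48 in the PM. Of 18 regulators that bind, chaperone or activate heat shock factors, 10 rose in the PM and 11 in the AM, and none fell (7.59% of all loci rose in the PM and 5.20% in the AM). ROF2, an immunophilin, rose by 5.22 ± 0.66 in the PM and 5.83 ± 0.67 in the AM. The chaperones HSP90.1 and HSP70 rose by 5.53 ± 0.76 and 4.85 ± 0.73 in the PM and by 5.24 ± 0.75 and 4.47 ± 0.72 in the AM. DREB2A rose by 3.05 ± 0.46 in the PM and 1.70 ± 0.45 in the AM. In PM heat over AM heat, 3 of the 18 regulators were higher, where 17.9% of all loci were, and 6 were lower, where 19.0% of all loci were. The 3, named here after their values were seen, were DREB2A by 1.75 ± 0.43, DREB2B by 2.59 ± 0.43 and DREB2C by 3.10 ± 1.01 on the log2 scale. The heat responses of DREB2B and DREB2C were not called at either time. Their adjusted p were 0.0945 and 0.163 in the PM and 0.384 and 0.515 in the AM (edgeR). The 6 lower regulators are not named here, and a link of the 3 to HSFA3 was not tested.

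Of 22 targets, most of them chaperone genes, 19 rose in the PM (7.59% of all loci) and 22 in the AM (5.20%). Their median log2 fold change was 3.41 in the PM, against -0.03 over all loci, and 5.21 in the AM, against 0.03. Summed over the list, they had 4296 to 7014 CPM in PM heat and 108 to 523 CPM in PM control, and 12151 to 31859 CPM in AM heat and 215 to 1018 CPM in AM control. In PM heat over AM heat, 15 of the 22 were lower (19.0% of all loci) and 1 was higher (17.9%), and 5 had a called smaller response in the PM (0.397% of all loci had a called difference in response). The small heat shock proteins with the largest changes rose in the AM by 8.68 ± 0.86 (HSP22.0), 7.88 ± 0.77 (HSP17.4), 7.80 ± 1.00 (HSP17.6C) and 7.44 ± 0.77 (HSP21). In the PM, HSP22.0, HSP17.4 and HSP21 rose by 3.99 ± 0.78, 3.27 ± 0.62 and 3.19 ± 0.70. HSP17.6C was not called in the PM (1.05 ± 0.75, adjusted p = 0.333 by edgeR). It had 41.9 to 61.2 CPM in PM heat, and its PM control libraries spread from 3.52 to 76.1 CPM.

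The loci whose pattern was most like that of each gene were ranked by Pearson r of log2(CPM + 1) over the 16 diel libraries, among 14816 loci with a mean of at least 5 CPM, for the 6 genes that reached this level. The libraries share groups and replicate pairs, so r is a description. Nearest to HSFA2 were MBF1C (r = 0.993), HSP101 (0.990) and SR45a (0.989), all known as heat-induced. Nearest to HSFA3 were AT1G15170 (0.984), PP2-A12 (0.978) and RAE1 (0.978), and nearest to HSFA7A were SNRK2.3 (0.976), TRFL3 (0.961) and AT1G01940 (0.960). For HSFA1A, HSFA1B and HSFA1D the nearest loci, AT5G16280, SRPK4 and AT3G62530, had r of 0.891, 0.919 and 0.916. Between HSFA2 and HSFA7A r was 0.788, between HSFA3 and HSFA7A 0.743, and between HSFA2 and HSFA3 0.354.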

How the data were processed

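RNA-Seq counts of 20 Arabidopsis libraries were used: 16 diel libraries in 4 groups of 4 replicates and 4 single constant light libraries, grouped by their labels. The deposited values are raw read counts per locus, which the authors made from poly(A) RNA with TopHat2 2.1.0 and HTSeq 0.6.0 on TAIR10, on the reverse strand, without normalization. Alignment and counting were not repeated. The 21404 loci that reached 10 counts in any diel library were fitted with edgeR 4.0.16 in R 4.3.3 (TMM, quasi-likelihood test, 4 groups in one fit), and adjusted p are Benjamini-Hochberg values of this test. A locus was called at an adjusted p under 0.05 and an absolute log2 fold change over 0.5, and the interaction at an adjusted p under 0.05. Standard errors were worked back from the F statistic. Library totals of 14637914 to 38812441 set the counting error of low transcripts. Constant light ratios carry 95% exact (Clopper-Pearson) intervals, which cover counting error only, and a count of 0 was set to 3.

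The main fit held no term for the replicate number, which was fitted as a block only among the alternatives. Over 14816 genes, all 24 correlations between same-numbered deviations from group means exceeded 0.1 (mean r 0.512, lowest 0.117). The other number of the same pair (1 with 2, 3 with 4) correlated about as well (mean 0.496, lowest 0.248). This structure therefore lies mostly between the pairs, which were also fitted as a batch. Deviations cancel within each group, so the mean of -0.504 across the pairs follows from the other means and adds no evidence. The 10 genes and the lists were chosen with earlier results of these data known. Named were the 10 genes, the marker genes and up to 4 genes per list with the largest called heat response. For each of the 10 with a mean of at least 5 CPM, up to 3 loci of highest r were named. DREB2B and DREB2C, without a called heat response, were named after their values in PM heat over AM heat were seen. Alternatives were DESeq2 1.42.0, other scalings (RLE, upper quartile), a stricter count filter and other limits, a block for the replicate number, pairs of numbers as a batch, each time fitted alone and leaving out libraries. LL PM heat against LL AM heat was added after the data were seen. No 2 replicates of a group were alike within sampling noise. The fits were checked on simulated counts. Coding sequences were aligned with Biopython 1.88. Protein sequences were not used here.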

Additional observations from a re-analysis of the deposited data

Results flagged for a closer look

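In 3 of the 40 groups of 4 diel libraries checked, 1 library stood far from the other 3, and chance alone gives about 1 in 20. HSFA3 had 15.5 CPM in PM control replicate 2, and this library moved 2 calls, as given above. HSFA3 also had 3.32 CPM in AM heat replicate 2. HSFA6B had 0.0689 CPM in AM heat replicate 3, which is a single read. In 3 comparisons the single constant light libraries ran against diel groups that did not overlap. The difference between constant light and diel libraries was not tested. HSFA1B was 0.897 times as high in LL PM heat as in LL PM control, with an interval that includes 1, and 0.845 times as high in LL PM heat as in LL AM heat (0.643 to 1.11). HSFA7A was 0.535 times as high in LL PM heat as in LL AM heat (0.486 to 0.588), whereas PM heat exceeded AM heat in the diel libraries by a fitted fold of 2.02.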

How the results depend on the processing

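Leaving out libraries gave 4 to 5 called genes for the PM heat response, 3 to 4 for the AM heat response, 5 to 6 for PM control against AM control, 3 to 6 for PM heat against AM heat and 0 to 1 for the difference between responses, where the 1 was HSFA3, without replicate 2 of every group or without PM control replicate 2 alone. Leaving out 1 number in every group ended the PM response of HSFA1B without replicates 1, 3 or 4, its PM heat over AM heat difference without any of the 4 numbers, and that of HSFA6A without replicates 1, 3 or 4. The replicate block changed the calls of HSFA3 (AM response, log2 fold change 0.77) and HSFA1E (PM heat against AM heat, 0.55) and no other call of the 10 genes. Past a log2 ratio of 1 in LL PM control against LL AM control were 4 genes with library totals in place of TMM, and 4 at a limit of 0.5. At that limit 5 genes were past it in LL PM heat against LL AM heat. The shares of all loci under these settings, and without libraries, are not given here. These counts therefore cannot be read against a background.

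Every change of sign was in an effect that was not called. With upper-quartile normalization, which shifted the median of all loci by -0.14 in the PM heat response and -0.11 in the AM heat response, the AM response of HSFA1B was -0.070 and the difference between responses of HSFA1A -0.024, and under the stricter count filter that of HSFA1A was -5.76e-04. Over the fits without single libraries or numbers, the AM response of HSFA1B ran from -0.034 to 0.077. PM control over AM control ran from -0.22 to 0.14 for HSFA1A, from -0.16 to 0.15 for HSFA1B and from -0.078 to 1.64 for HSFA7B. PM heat over AM heat ran from -0.12 to 0.038 for HSFA1A and from -0.20 to 0.085 for HSFA1D. The difference between responses ran from -0.19 to 0.18 for HSFA1A, from -0.017 to 0.93 for HSFA2 and from -1.50 to 0.26 for HSFA7B. The cause of these changes was not tested. With Spearman's rho in place of Pearson's r, 0 of the 3 nearest loci were shared for HSFA1A, HSFA1B, HSFA1D and HSFA2. Depth limits HSFA6A, HSFA6B and the controls of HSFA7B, which rest on 0 to 58 reads per library.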
